A study of Mus musculus with 8 samples.

Results

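The interferon-stimulated antiviral and STAT/IRF genes are 41 mouse genes: the interferon receptor chains, STAT and IRF transcription factors, cytoplasmic RNA sensors, antiviral effectors and feedback inhibitors. They were chosen by gene symbol among the 21597 symbols on the array, with older symbols counted, so Irf9 was read as Isgf3g and Dhx58 as D11Lgp2e. All 41 genes were on the array, with 70 probes between them. In 40 of them at least 1 probe passed the signal filter (a red processed signal of at least 25 on at least 4 arrays), as did 18505 genes in all. Mx1 did not pass with either of its 2 probes and was not tested.

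The RNA came from whole pancreas of 12-week-old female mice. Each of 8 NOD mice (NOD/LtJ), a strain that develops autoimmune diabetes, was labeled red (Cy5) on its own two-color array. The green (Cy3) sample on every array was 1 pool of RNA from 8 female NOD.B10 mice (NOD.B10Sn-H2b/J) of the same age, which share the NOD background but carry another H2 (major histocompatibility) haplotype and are not diabetes-prone. The comparison asks which genes differ in the pancreas at the age when destructive insulitis, the attack of leukocytes on the islets, sets in. The pool was 1 sample, so the spread among NOD.B10 mice was not measured, and p-values describe the spread of 8 NOD mice around that pool. No array had the dyes swapped, so strain and dye cannot be told apart. In whole tissue, fewer cells of a type and less RNA per cell cannot be told apart either.

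Type I interferons bind IFNAR1 and IFNAR2, and the JAK kinases on these chains activate STAT factors, STAT2 among them, which join IRF9 and bind interferon-stimulated response elements in the promoters of antiviral genes. Interferon-gamma binds IFNGR1 and IFNGR2 and acts through gamma-activated sites, with IRF1 among the early targets. An interferon signature in pancreas and blood is a much-studied feature of autoimmune diabetes.

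Values below are log2 ratios of NOD over pool. A value of 0 is no difference, and for a gene with several probes the probe with the brightest signal over both dyes is given. The red sample was the dimmer. Red signal was well above background (as called by the scanner software) in 21.6% to 35.3% of spots per array and green in 57.6% to 60.7%. Replicates 1 to 4 were on slide 1 and replicates 5 to 8 on slide 2. Red spots printed more than once on an array varied by 16.1% to 24.8% (median CV) on slide 1 and by 38.2% to 63.5% on slide 2, and 3 arrays of slide 2 (replicates 5, 6 and 7) failed the software's own grid check. Acinar markers had red signal well above background in 8 of 9 tested genes (Amy2 had no probe by that symbol), with a median log2 ratio of 0.05 on the deposited scale, but 0.47 and 1.2 under other background corrections named below (median-centered signals and normexp). All 5 tested liver markers were called lower in NOD, with a median of -3.21 (-0.67 with normexp), and the part of liver RNA in the members' values was not tested.

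The study's rule asked for a 2-fold difference with a corrected p below 0.01, and 0 of the 40 members met it (limma, Benjamini-Hochberg adjustment over 28105 probes). Of all 18505 genes, 0.389% were called higher and 1.29% lower by this rule. At an adjusted p under 0.05 and any fold, 3 of the 40 members were lower (Irf3, Ifngr1 and Ifi27) and 0 were higher, against 14.3% lower and 6.97% higher among all genes. The 3 members are thus a smaller share than the background of lower genes. At an unadjusted p under 0.05, limma had 6 members lower (Irf3, Ifngr1, Ifi27, Stat2, Ifit2 and Ifi35) and 3 higher (Socs1, Ifngr2 and Oas3), against 25% lower and 10.8% higher of all genes. The plain one-sample statistic gave the same 3 lower and 0 higher, and the exact sign-flip test of single members gave 8 at p under 0.05, against 32.5% of all genes. With median-centered signals (background-subtracted, each array's ratios set to a median of 0 over bright spots) in place of the deposited ratios, which moved the median of all genes by 0.09, the split was 7 higher and 5 lower, against 25.7% higher and 18.9% lower of all genes.

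The median over the 40 members was -0.16, beside -0.08 over all genes. Compared with the deposited ratios, the sign of the mean turned in 13 members with median-centered signals and in 16 with normexp correction. In 25 members the deposited mean was below 0, in 14 above and in 1 (Oas1g) at 0, while 58.7% of all genes were below 0. Below the pool in all 8 mice were 4 members (Irf3, Ifngr1, Ifi27 and Stat2) and above it in all 8 were 0, against 10% and 5.04% of all genes. None of the 40 means reached 2-fold in either direction. The 95% intervals (from the SD of the 8 mice) lay wholly within 2-fold for 27 members, and for 36 they ended below 2-fold higher. Of the 18 members with red signal well above background on at least 4 arrays, these counts were 12 and 16. Intervals of dim members are narrowed by ratios that the software set to 0, so they are no measure of those genes. In these files the ratio was 0 where stand-ins replaced unusable signals in both dyes, and where the stand-in of one dye was above the measured signal of the other. Over all arrays, 98829 spots had a stand-in in red alone, and of these 48338 read 0, 50491 read below 0 and 0 read above it. A member with red stand-ins could thus read only 0 or lower on those arrays.

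**Figure D1:**
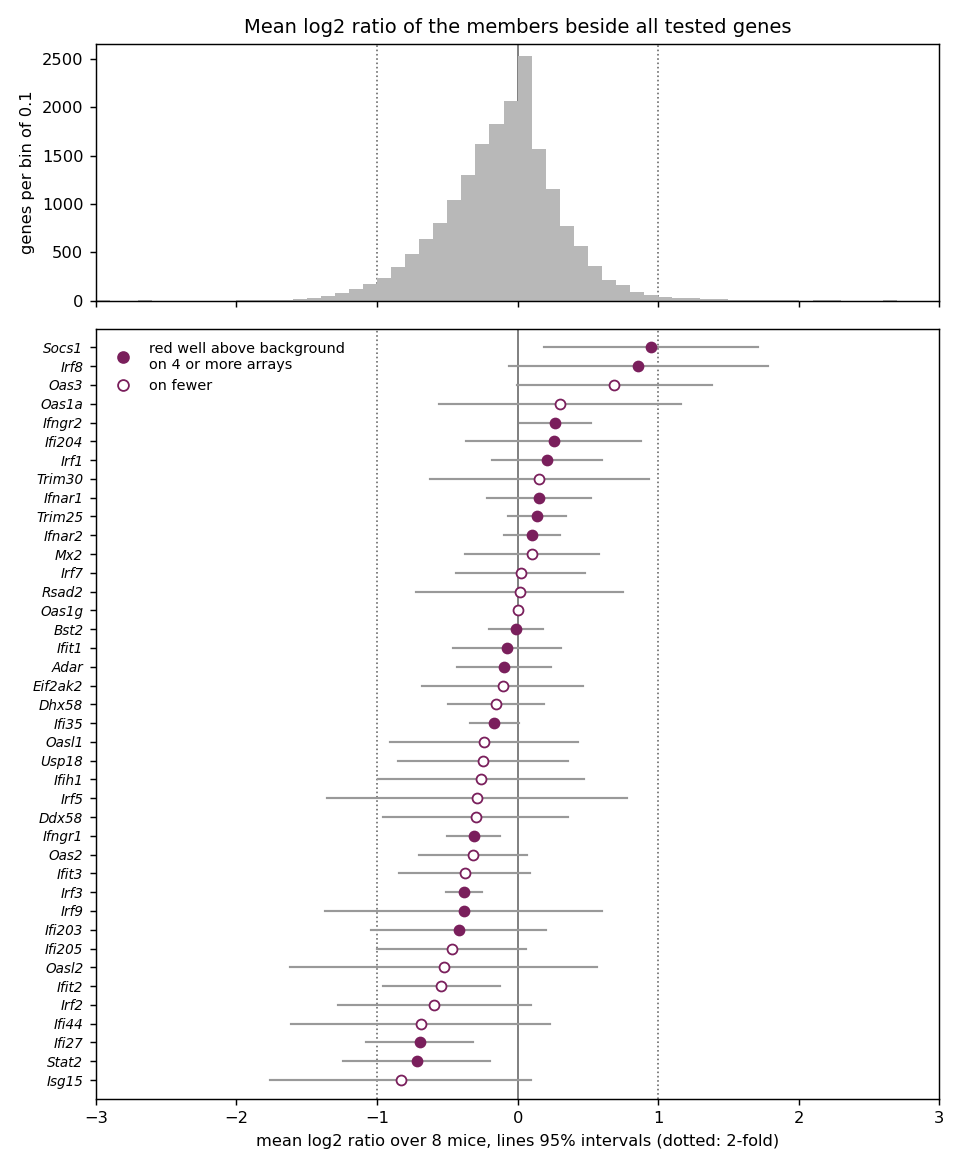
Mean log2 ratio over 8 mice. The upper panel counts all 18505 tested genes in bins of 0.1, and the lower panel gives the 40 tested members with 95% intervals (lines), filled where red signal was well above background on at least 4 arrays. On the deposited ratios every member mean lies between the dotted 2-fold lines, from -0.83 (Isg15) to 0.95 (Socs1).

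How well a member could be measured differed widely. Red signal was well above background on all 8 arrays in 9 members (Ifnar2, Ifngr1, Ifngr2, Irf1, Irf3, Trim25, Bst2, Ifi27 and Ifi35) and on at least 4 arrays in 18, against 51.6% of all genes. In 14 members it was so on no array, among them 5 of the 6 OAS genes, Ifit2 and Ifit3. Green signal was well above background on all 8 arrays in 34 members. The 18 brighter members had a median of -0.04, beside -0.06 over 9544 such genes, and 8 were above 0 and 10 below. This choice uses the NOD signal itself, so that median is a description only.

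**Figure D2:**
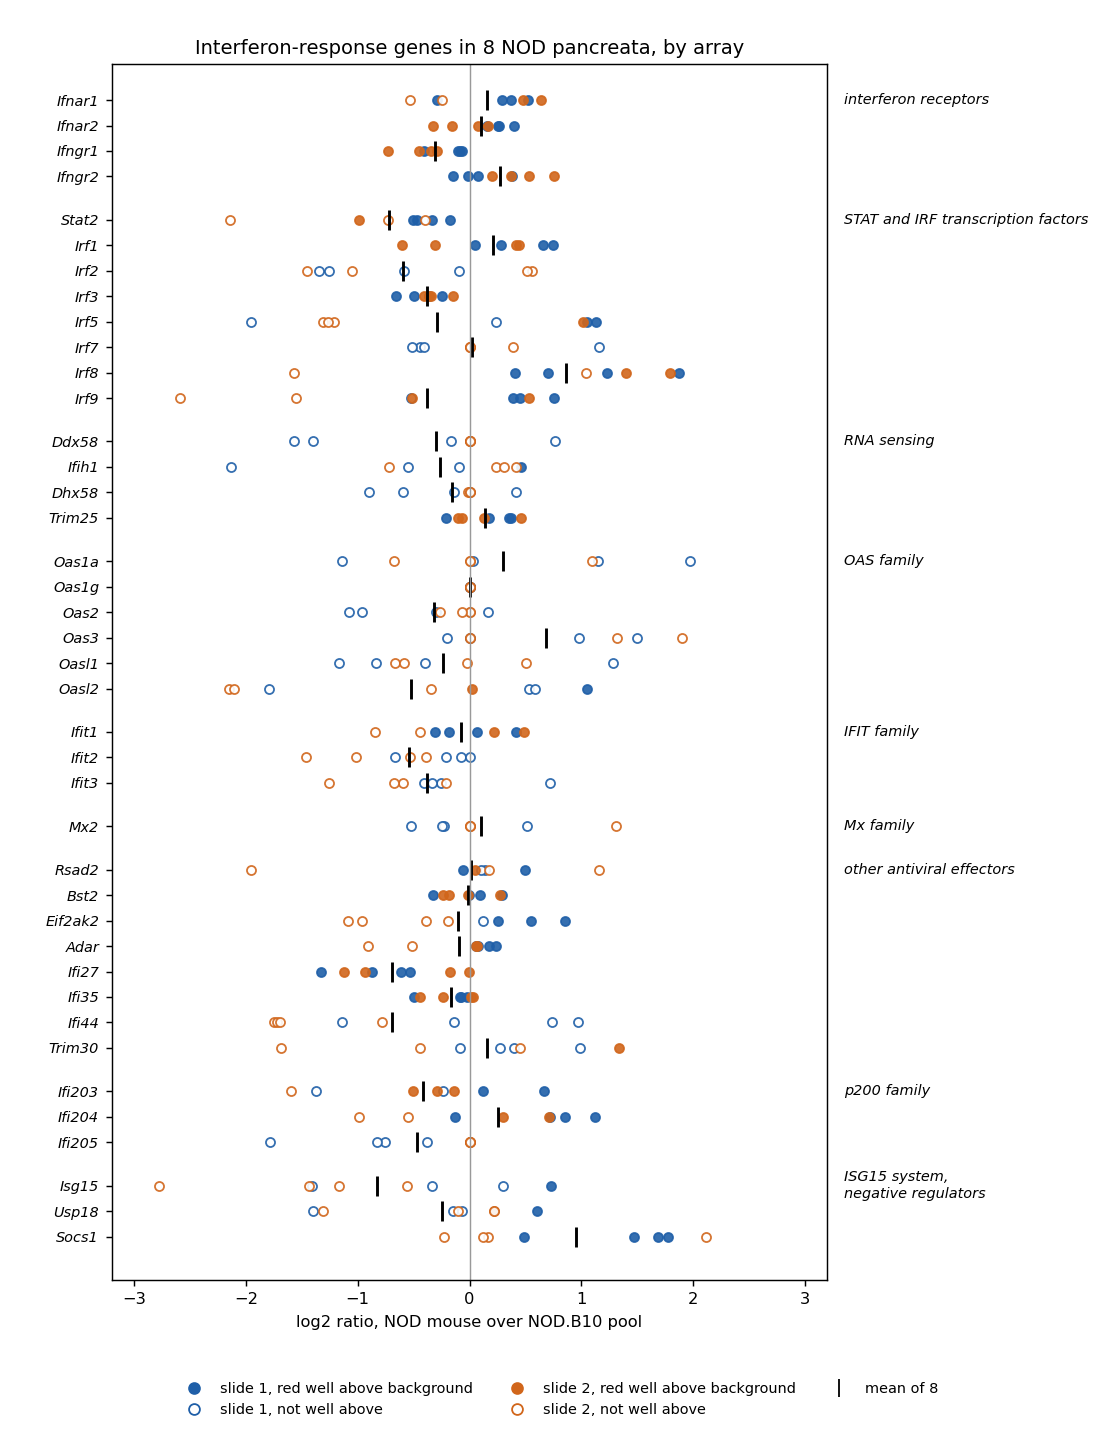
Log2 ratio (x axis) of each tested member (rows, grouped by role) in each of 8 NOD mice, colored by slide, filled where that array's red signal was well above background, with a bar at the mean. Filled rows such as Irf3 and Bst2 are tight, while rows of mostly open points such as Oasl2 and Isg15 spread over 2 or more log2 units.

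Binding motifs of the interferon-activated factors were looked up in the members' promoters (250 bases before to 50 after the transcription start, RefSeq, GRCm38.p6). The response-element core was searched as 2 copies of GAAA with any 2 bases between them, and the gamma-activated site as TTC and GAA with any 3 bases between them, on both strands. Promoters were found for 34 of the 41 members. The core was in 17 of them (50%) and in 3.99% of 27025 genes with a promoter, and the gamma-activated site in 11 (32.4%) and 9.55%. In 4 members both motifs were present, and in 1 of these the matches share bases. The stretches below, all before the start site, are shown because they carry the core in members whose values are described below. Capitals mark the matched core, with overlapping matches merged.

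Isg15: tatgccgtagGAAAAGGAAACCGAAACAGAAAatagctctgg
Ifit1: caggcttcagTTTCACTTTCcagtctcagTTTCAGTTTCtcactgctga
Ifit3: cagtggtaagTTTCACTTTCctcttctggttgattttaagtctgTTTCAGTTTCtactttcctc
Oas3: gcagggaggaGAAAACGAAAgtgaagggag
Bst2: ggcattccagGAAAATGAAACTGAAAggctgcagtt
Stat2: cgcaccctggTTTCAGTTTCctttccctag
Socs1: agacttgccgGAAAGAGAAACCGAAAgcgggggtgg

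Each is written 5′ to 3′ along its gene. On GRCm38.p6 they lie at chr4:156200865-156200906 (minus strand, Isg15), chr19:34640775-34640823 (plus, Ifit1), chr19:34583363-34583426 (plus, Ifit3), chr5:120777715-120777744 (minus, Oas3), chr8:71537577-71537612 (minus, Bst2), chr10:128270266-128270295 (plus, Stat2) and chr16:10785594-10785629 (minus, Socs1). The Isg15 stretch holds 3 overlapping matches, and those of Socs1 and Bst2 hold 2 each.

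Most members with the core were dim in the red dye, which was the dimmer on every array. Its signal was well above background on at least 4 arrays in 5 of the 17 with the core and 11 of 17 without. The 17 tested members with it ranged from -0.83 (Isg15) to 0.95 (Socs1) with a median of -0.11, and the 17 without it from -0.69 to 0.86 with a median of -0.17. None of the 17 with the core had an adjusted p under 0.05. Irf3 and Ifngr1 had no match in this window, and no promoter was found for Ifi27.

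Of the 4 receptor chains, 1 was lower by the 0.05 rule and 3 did not pass. Ifngr1 (NM_010511), the ligand-binding chain for interferon-gamma, had log2 ratios from -0.73 to -0.07 with a median of -0.32. All 8 mice were below the pool. The mean was -0.31 ± 0.22 (SD, n = 8), or 80.6% of the pool (95% interval 70.8% to 91.8%), with an adjusted p of 0.0290 by limma and an exact sign-flip p of 0.00781, the smallest that 8 mice can give. The call was lost without replicate 1 (adjusted p = 0.0670), 6 (0.0567), 7 (0.0613) or 8 (0.0624). It was also lost with median-centered signals, where the mean was -0.14, and with normexp correction (a model-based background correction of the raw signals), where it was -0.16.

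Ifngr2, its signaling partner, ranged from -0.15 to 0.76 with a median of 0.29 and was above 0 in 6 mice. Its mean was 0.27 ± 0.30 (adjusted p = 0.104), a second bright probe gave -0.02, and the mean was -0.18 with median-centered signals and -0.16 with normexp correction. The difference between the 2 gamma-receptor chains was not tested. Ifnar1, a chain of the type I receptor, had a mean of 0.15 ± 0.44 (adjusted p = 0.50), but -0.58 with median-centered signals and -0.07 with normexp correction. Ifnar2, the other chain, ranged from -0.33 to 0.39 with a median of 0.16 and a mean of 0.10 ± 0.24 (adjusted p = 0.426), but -0.43 with median-centered signals and -0.25 with normexp correction. Its dimmer probe read -0.53 ± 0.64, with red well above background on 1 array.

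Among the 8 transcription factors, Irf3 was lower and 7 did not pass. Irf3 (NM_016849), which is activated downstream of RNA and DNA sensors and starts the transcription of interferon-beta, had the smallest SD of the 9 members measured on all 8 arrays. Its log2 ratios ran from -0.66 to -0.15 with a median of -0.36, and all 8 mice were below the pool. The mean was -0.38 ± 0.15 (SD, n = 8), or 76.9% of the pool (95% interval 70.4% to 84.1%), with an adjusted p of 0.00393 and a sign-flip p of 0.00781. It was called with each mouse left out (adjusted p at most 0.0125). The mean was -0.05 with median-centered signals (adjusted p = 0.854) and -0.08 with normexp correction (adjusted p = 0.788). The dimmer Irf3 probe, on AK050570, read -0.11 ± 0.32, and the mean of both was -0.24 (adjusted p = 0.0341).

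Stat2, the STAT that is particular to the type I response, was below the pool in all 8 mice. Its log2 ratios ran from -2.14 to -0.17 with a median of -0.49. The mean of -0.72 ± 0.63 had an adjusted p of 0.0501, just above the threshold, and a sign-flip p of 0.00781. The lowest value was replicate 8. Without it the mean was -0.52 and the adjusted p 0.0165, and it was also under 0.05 with median-centered signals (-0.92, adjusted p = 0.00652) and with slide as a covariate (adjusted p = 0.0309). It was not under 0.05 with normexp correction, where the mean was -0.11 (adjusted p = 0.0626), with the plain statistic (0.0719), with no signal filter (0.0639) or without any of the other 7 mice. Red signal was well above background on 5 arrays, not including replicate 8.

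Irf8, a factor of myeloid and B cells, had 2 probes that disagreed. The brighter ranged from -1.57 to 1.88 with a median of 1.14 and was above 0 in 7 of 8 mice. Its mean was 0.86 ± 1.10 (adjusted p = 0.149). Without replicate 5, the only mouse below 0, it was 1.21 with an adjusted p of 0.0109. The dimmer probe ranged from -1.11 to 0.00 with a median of -0.58 and a mean of -0.51 ± 0.41 (adjusted p = 0.0393). Its red signal was well above background on no array, and on 5 the software had put a stand-in in place of an unusable value. Averaged over both probes the mean was 0.17, so no direction is given for Irf8.

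Irf1, an early interferon-gamma target, was well above background in all 8 mice. It ranged from -0.60 to 0.75 with a median of 0.35 and a mean of 0.21 ± 0.47 (adjusted p = 0.402). Replicates 5 and 8 were below 0 and the other 6 above. Its dimmer probe read -0.60 ± 0.80. Irf9, the DNA-binding partner of STAT2, ranged from -2.59 to 0.75 with a median of -0.06 and a mean of -0.38 ± 1.18, and its other probe read 0.30 ± 1.24. Irf2, a counterpart of Irf1 that often represses, had a mean of -0.59 ± 0.82 (adjusted p = 0.180). Irf5 (-0.29 ± 1.28) and Irf7 (0.02 ± 0.55), both drivers of interferon production, had spreads larger than their means. With median-centered signals Irf2 was at -0.96 (adjusted p = 0.00793) and Irf7 at 0.85 (adjusted p = 0.00770), while normexp correction put them at -0.10 and -0.01.

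The RNA sensors gave no call in 4 genes. Trim25, a ubiquitin ligase of the RIG-I pathway, was the only one measured on all 8 arrays. It ranged from -0.21 to 0.46 with a median of 0.15, 5 mice above 0 and 3 below, and its mean of 0.14 ± 0.25 (110% of the pool, 95% interval 95.4% to 127%) had an adjusted p of 0.300. Its dimmer probe read -0.37 ± 0.53. Ddx58 (RIG-I, -0.30 ± 0.79), Ifih1 (MDA5, -0.26 ± 0.88) and Dhx58 (LGP2, -0.15 ± 0.41) had red signal well above background on at most 1 array.

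None of the 6 OAS-family genes (the OAS enzymes make the activator of RNase L, and the OAS-like genes are their relatives) had an adjusted p under 0.05, and only Oasl2 had a red signal well above background, on 2 arrays. Oas3 had the highest mean of the family on the deposited ratios, 0.69 ± 0.83 (adjusted p = 0.127), with log2 ratios from -0.20 to 1.90 and a median of 0.49. Its mean was 0.93 as the ratio of processed signals (adjusted p = 0.0120), 0.92 with median-centered signals (adjusted p = 0.00443) and -0.04 with normexp correction, so its direction is not given. Red stand-ins were used on 4 arrays, and its other probe read -0.16 ± 0.29. Oas2 ranged from -1.08 to 0.16 with a median of -0.17, and its second probe was at 0 in all mice but 1. Oas1g, with red stand-ins on all 8 arrays, was at 0 on each, and read 1.41 as the ratio of processed signals (adjusted p = 0.000955), 2.49 with median-centered signals (adjusted p = 5.69e-07) and -0.02 with normexp correction. Oas1a (0.30 ± 1.03), Oasl1 (-0.24 ± 0.80) and Oasl2 (-0.53 ± 1.31) had intervals spanning 0. With median-centered signals Oas1a and Oasl1 were both at 0.75 (adjusted p = 0.0360 and 0.0351 by limma) and Oasl2 at 0.16. Oas1a and Oas1g are close paralogs whose probes may share signal.

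The IFIT genes bind foreign RNA and are among the most responsive to type I interferon. Ifit1, the only one with red signal well above background on most arrays (6), had a mean of -0.08 ± 0.46, 4 mice above and 4 below 0, and a 95% interval from 72.8% to 124% of the pool. Ifit2 had a mean of -0.54 ± 0.50 (adjusted p = 0.0586) on a probe dim in both dyes, which read 0.88 with median-centered signals. Ifit3 had a mean of -0.38 ± 0.56, and -0.53 with an adjusted p of 0.0423 without replicate 4. Of the Mx genes, GTPases that block viral replication, Mx2 had a mean of 0.10 ± 0.57. The 2 Mx1 probes were at 0 on 6 and on 8 of the arrays.

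Among the 8 other effectors, Ifi27 was lower. On the array this symbol marks 2 probes on NM_029803, which RefSeq now names Ifi27l2a, a small membrane protein induced by interferon, and 1 on AK010014 at chr12:103856768-103856827 (mm8), which may be another gene of the family. Its brightest probe, at chr12:103843234-103843293 (mm8), had log2 ratios from -1.32 to -0.001 with a median of -0.74. All 8 mice were below the pool, replicate 8 by almost nothing. The mean was -0.70 ± 0.46 (SD, n = 8), or 61.7% of the pool (95% interval 47.4% to 80.4%), with an adjusted p of 0.0194 and a sign-flip p of 0.00781. It stayed under 0.05 with each mouse left out (at most 0.0499), with median-centered signals (-1.55) and with normexp correction (-0.73). The other NM_029803 probe read -0.80 ± 1.24 and the AK010014 probe -0.38 ± 0.57, each below 0 in 6 of 8 mice. The mean of the 3 probes, -0.63, had an adjusted p of 0.0999.

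Bst2 (tetherin), which holds budding virus at the cell surface, was bright in both dyes. It ranged from -0.33 to 0.29 with a median of -0.01 and a mean of -0.01 ± 0.23, or 99.0% of the pool (95% interval 86.7% to 113%). That closeness holds for the deposited ratio, since the mean was -0.69 with median-centered signals (adjusted p = 0.0447) and -0.53 with normexp correction. Ifi35, an interferon-induced leucine-zipper protein, ranged from -0.50 to 0.03 with a median of -0.08 and a mean of -0.17 ± 0.21 (adjusted p = 0.148), with 6 mice below 0.

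The remaining effectors were dim or variable. Rsad2 (viperin) read 0.01 ± 0.88 on its brightest probe, and a dimmer one, with stand-in red values on all 8 arrays, read -0.38 ± 0.32 (adjusted p = 0.0432). Adar, an RNA-editing enzyme, had a mean of -0.10 ± 0.40 with 6 mice above 0. Its other probe, with red signal well above background on 5 arrays, read 0.30 ± 0.77. Ifi44 had a mean of -0.69 ± 1.10 with 6 mice below 0. The means of Ifi44 and of the brightest Adar probe turned sign with median-centered signals and with normexp correction. Trim30 (Trim30a in RefSeq), a regulator of innate signaling, had 0.15 ± 0.93, but 1.06 with median-centered signals. Of the p200 genes, DNA-binding paralogs that may cross-hybridize, Ifi203 had -0.42 ± 0.75 and Ifi205 -0.47 ± 0.64. Ifi205 passed 0.05 with median-centered signals (-0.65) and normexp correction (-0.14), but was 0.10 as the ratio of processed signals. Ifi204 had 3 probes at 0.26 ± 0.74, -0.07 ± 0.48 and -0.40 ± 0.55, the brightest ranging from -0.99 to 1.12 with a median of 0.51.

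Isg15, the ubiquitin-like modifier, had the lowest mean of the members on the deposited ratios and no call. It ranged from -2.77 to 0.73 with a median of -0.86, 6 mice below 0 and 2 above, and its mean of -0.83 ± 1.11 had an adjusted p of 0.163. The mean was -0.07 with median-centered signals and -0.03 with normexp correction. Red signal was well above background on 1 array. The file lists its probe at chr17:45870420-45870479 (mm8), whereas RefSeq places Isg15 on chromosome 4, so the target of this probe is uncertain. Usp18, which removes ISG15 and restrains receptor signaling, had -0.25 ± 0.72.

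Socs1, the inhibitor of JAK kinases that interferons induce, had the highest mean. It ranged from -0.23 to 2.11 with a median of 0.98, and 7 of 8 mice were above the pool. The mean was 0.95 ± 0.91 (SD, n = 8), or 193% of the pool (95% interval 114% to 327%), with an adjusted p of 0.0662 and a sign-flip p of 0.0312. Without replicate 5, the only mouse below 0, it was 1.12 with an adjusted p of 0.0493. The mean was 0.17 with median-centered signals and 0.13 with normexp correction. Red signal was well above background on the 4 arrays of slide 1 and on none of slide 2.

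Of 6 leukocyte markers (Ptprc, Cd3e, Cd28, Ms4a1, Itgax and Itgam), 3 were higher in the same NOD samples. All 6 means were above 0 on the deposited scale, with a median of 0.81. With normexp correction the median was 0.23 and Itgam was at -0.01, and with median-centered signals the median was 1.23. By the deposited ratios, Ptprc, Cd3e and Itgax passed an adjusted p of 0.05. The summed red signal of the 6 was 4255 to 17258 per array and the summed green 2699 to 8238, while Cd28 and Itgam had red signal well above background on no array. By mouse the leukocyte median ran from 0.00 (replicate 5) to 1.63 (replicate 7). The Irf8 values set beside these medians are those of its brighter probe unless stated. Replicate 5 was also the lowest for Irf8, Irf1 and Socs1, and replicate 7 had the highest Socs1. On replicate 5 the red signal of Irf8 and Socs1 was not well above background, nor was that of Socs1 on replicates 6 and 7. The 3 highest Irf8 values, 1.79, 1.40 and 1.88, were in the mice with the 3 highest leukocyte medians (replicates 7, 6 and 4). The dimmer Irf8 probe was instead lowest in replicate 4 (-1.11) and highest in replicate 2 (0.00), with replicates 6 and 7 at -0.01 and -0.36. Replicate 2, with the second lowest leukocyte median (0.20), had Irf8 at 1.23, Irf1 at 0.66 and Socs1 at 1.78, and replicate 6, with the second highest (1.29), had Socs1 at 0.17. The part of leukocytes in the values of Irf8, Irf1 and Socs1 was not tested.

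The leukocyte list shares genes with the lists by cell type. On the deposited ratios, medians of these were 0.84 for T cells (4 of 8 genes higher), 0.80 for B cells (0 of 5 past the test), 0.13 for myeloid cells (1 of 6 higher), 0.58 for natural killer cells (0 of 4) and -0.07 for plasmacytoid dendritic cells, the chief makers of type I interferon (Tlr9 higher and Tlr7 lower of 5). Endothelial markers had a median of -0.42 (4 of 5 lower), duct markers -0.15 (1 of 4 lower) and beta cell markers -0.64 (1 of 6 lower). Acinar markers had 2 of 9 higher. With normexp correction the medians were 0.13 for T cells, 0.04 for B cells, 0.06 for natural killer cells, 0.01 for myeloid cells, 0.01 for plasmacytoid dendritic cells, -0.09 for endothelial, -0.23 for duct and -0.20 for beta cell markers. With median-centered signals they were 0.89, 1.08, 1.85, 0.05, 0.26, -0.55, -0.63 and -1.05, in the same order. The higher and lower counts use an adjusted p of 0.05, and the part of these cell types in the lower Irf3, Ifngr1 and Ifi27 was not tested.

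Genes of the pathway outside the members were counted the same way. Of 12 tested interferon ligands, 2 passed, both lower and both with red signal well above background on no array: Ifna12 (-0.78 ± 0.57, adjusted p = 0.0281) and the gene listed as Il28 (-0.83 ± 0.58, adjusted p = 0.0239, but 0.48 with median-centered signals). Ifnb1 did not pass the signal filter. Of 10 JAK and other STAT genes 3 were lower and 0 higher: Tyk2 (-0.83 ± 0.21), Stat3 (-0.39 ± 0.27) and Jak1 (-0.28 ± 0.15), with Tyk2 on no array well above background.

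Of 14 tested nucleic acid sensing genes outside the members, 2 were higher and 4 lower. Zbp1, a sensor of left-handed nucleic acid, was higher by 1.36 ± 0.52 in 8 of 8 mice (adjusted p = 0.00289), with red signal well above background on 3 arrays, and Tlr9, the receptor for CpG DNA, by 0.61 ± 0.22 in 8 of 8 mice (adjusted p = 0.00255). Ikbke, a kinase for IRF3, fell by 1.07 ± 0.48 on the log2 scale (adjusted p = 0.00491) with red signal well above background on no array, though it was -0.19 with median-centered signals and 0.00 with normexp correction. Mavs (listed as D430028G21Rik), the adaptor of RIG-I and MDA5, fell by 0.44 ± 0.13 (adjusted p = 0.00155) in 8 of 8 mice. Rnf135, a ligase for RIG-I, fell by 0.52 ± 0.39 (adjusted p = 0.0327), but was 0.04 with normexp correction, and Tlr7 (named beyond the naming rule), with stand-in red values on all 8 arrays, fell by 0.45 ± 0.34 but was 0.40 with median-centered signals. Zbp1 and Ikbke were the 2 genes of this list that met the 2-fold rule.

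Of 44 other interferon-stimulated genes, 3 were higher and 1 lower. Cxcl9, a T cell-attracting chemokine induced mainly by interferon-gamma, had a mean of 2.64 ± 1.66 (adjusted p = 0.0167) and was above 0 in 6 mice and at 0 in 2. Psmb8, an immunoproteasome subunit encoded in the H2 region where the strains differ, had 0.94 ± 0.52 (adjusted p = 0.0110). Oas1e had 1.62 ± 1.17 (adjusted p = 0.0270) on a probe that was well above background on no array, and Tdrd7 fell by 0.63 ± 0.54 (adjusted p = 0.0473). The list median was -0.01. Normexp correction brought Cxcl9 to 0.61, Psmb8 to 0.27, Oas1e to 0.13, Zbp1 to 0.26 and Tyk2 to -0.13. Of 12 negative regulators 1 was lower, Pias2 (-0.18 ± 0.06, adjusted p = 0.00357), and of 3 further Irf-named genes 1 was lower, Irf2bp2 (-0.76 ± 0.34, adjusted p = 0.00486).

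Probes of a single gene often disagreed. Of 17 members with several tested probes, 12 had means of opposite sign, and in 8 (Ifnar2, Irf1, Irf8, Irf9, Trim25, Oas2, Oas3 and Ifi204) the gap exceeded 0.5. In Ifnar2, Irf1, Irf8, Trim25, Oas3 and Ifi204 the brightest probe was above 0 and the dimmest below it.

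**Figure D3:**
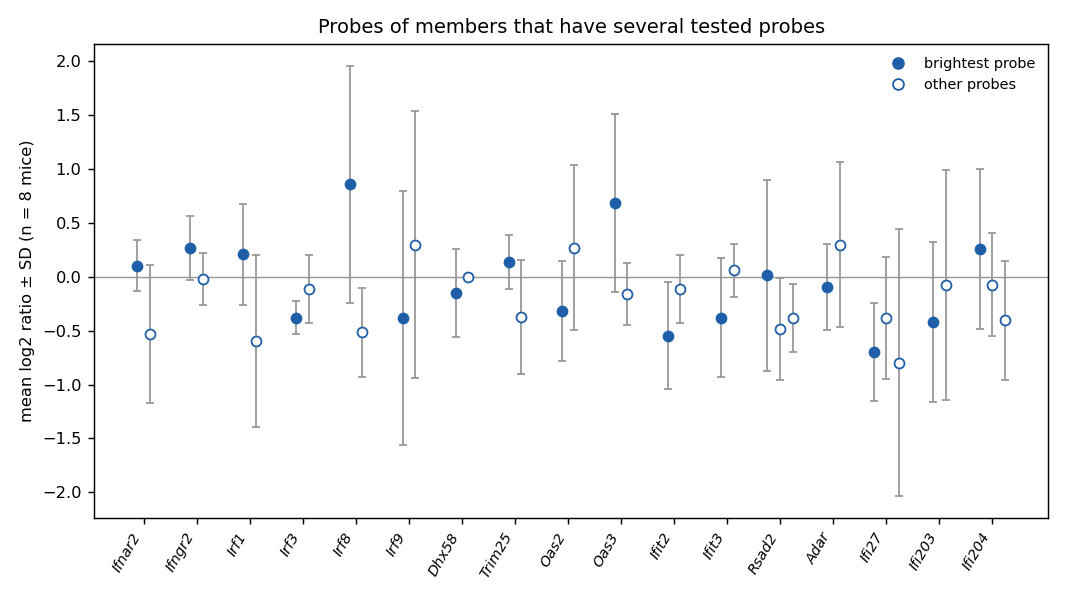
Mean log2 ratio ± SD over 8 mice of every tested probe of the 17 members with several, filled for the brightest. Irf8 shows the widest gap, from -0.51 to 0.86, while all 3 Ifi27 probe means lie below 0.

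By slide, no member passed an adjusted p of 0.05 (limma, slide 2 minus slide 1), against 3.85% of all genes. In 24 members the slide 1 mean was the higher and in 15 the slide 2 mean. The 2 groups of 4 mice did not overlap in Eif2ak2, with slide 1 higher, and in Ifi205, with slide 2 higher, against 6.93% and 7.41% of all genes. Eif2ak2 (PKR, the kinase that halts translation on double-stranded RNA) ranged from 0.12 to 0.86 on slide 1 and from -1.09 to -0.19 on slide 2. The difference of -1.10 had an adjusted p of 0.0762 by limma. Groups of 4 that do not overlap always give the exact permutation p of 0.0286, the smallest possible, so that p adds no evidence. The Eif2ak2 red signal was well above background on 3 arrays of slide 1 and on none of slide 2. Ifi205 was at 0 in all 4 mice of slide 2 and from -1.78 to -0.38 on slide 1, with stand-in red values on all 8 arrays. Irf3 (-0.44 and -0.32), Ifngr1 (-0.17 and -0.45) and Ifi27 (-0.83 and -0.56) were below 0 on both slides, with no call within either slide alone.

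**Figure D4:**
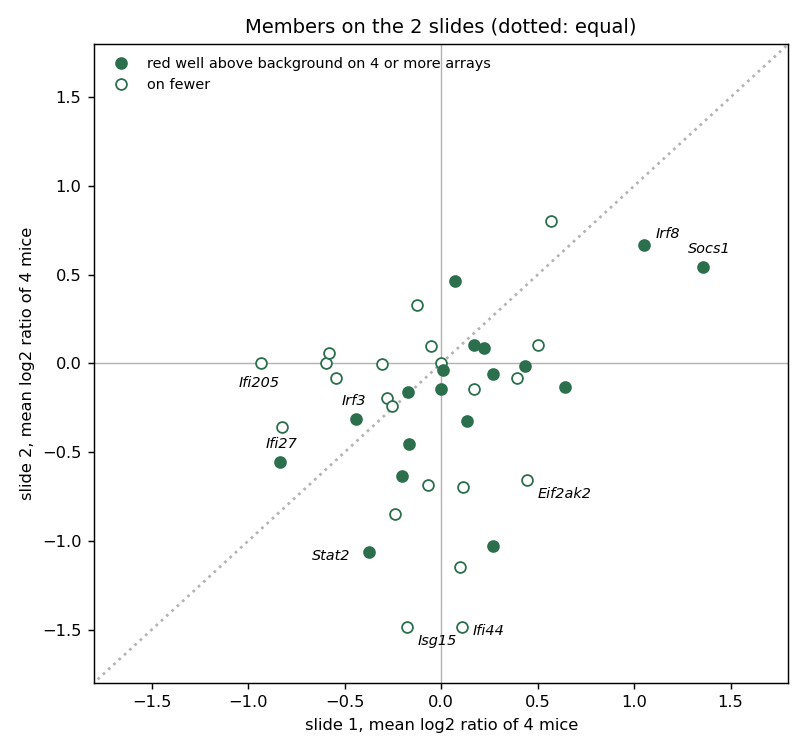
Mean log2 ratio of the brightest probe of each tested member over the 4 mice of slide 1 (x axis) and of slide 2 (y axis), filled where red signal was well above background on at least 4 arrays, with equality dotted. Eif2ak2 sits at 0.44 and -0.66, Irf3 and Ifi27 lie below 0 on both axes, and Socs1 and the brightest Irf8 probe above 0 on both, while the other Irf8 probe was at -0.54 and -0.49.

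By mouse, the median over the 40 members ran from -0.38 (replicate 8) to 0.20 (replicate 2), while that over all genes stayed between -0.03 and 0.00. Replicate 8 also had the fewest members with red signal well above background (9 of 40) and replicate 2 the most (24), and their arrays had the lowest (21.6%) and the highest (35.3%) share of such spots. The part of red signal strength in the members' medians was not tested.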

How the data were processed

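Pancreas RNA of 8 NOD mice (red) was measured against 1 NOD.B10 pool (green) on Agilent 44K two-color arrays. The authors extracted spots with Feature Extraction (version 10.7.3.1), which background-subtracted, detrended and dye-normalized them, and the files place probes on mm8. The deposited log10 ratios were converted to the log2 scale and averaged over the spots of each probe. The deposited processed signals are intensities, and a deposited score marks spots where a stand-in value replaced an unusable signal. Spots with stand-ins in both dyes, or with a stand-in above the other dye's signal, carry a ratio of 0.

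Probes with a symbol and a red signal of at least 25 on at least 4 arrays were tested by limma (version 3.58.1) in R 4.3.3 against 0, with Benjamini-Hochberg adjustment over all tested probes. Calls followed the study's rule (2-fold, adjusted p under 0.01) or an adjusted p under 0.05. Single genes were tested by exact sign flips and slides by exact permutation, both two-sided. Tables were made with pandas 2.3.3 and scipy 1.17.1, and plots with matplotlib 3.10.9, in Python 3.11.15. The tests were checked on simulated data.

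Members, gene lists and tests were chosen with earlier results of these data known. Named with values are members with an adjusted p under 0.05, with red signal well above background on all arrays, with probes disagreeing by over 0.5 or with slides that do not overlap, the other members in brief, and up to 5 called genes of each pathway list. Lists covered ligands, JAK and STAT, sensors, other interferon-stimulated genes, negative regulators, Irf-named genes and markers of 11 cell types. Array number limits the precision. Alternatives were other statistics, filters, scalings, probes, slides and mice left out.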

Additional observations from a re-analysis of the deposited data

Results flagged for a closer look

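In a group of 8 mice, 5 of the 40 members had 1 mouse far from the rest by Dixon's test, which picks out about 1 in 20 groups by chance and picked out 15.5% of all genes here. Stat2 was at -2.14 in replicate 8, with the next lowest mouse at -0.99. Rsad2 was at -1.95 in the same mouse, with the next lowest at -0.06. Irf8 was at -1.57 in replicate 5, with the next lowest at 0.40, Ifih1 was at -2.14 in replicate 1, with the next lowest at -0.72, and Ifi205 was at -1.78 in replicate 4, with the next lowest at -0.83. In none of these 5 spots was the red signal well above background. Eif2ak2 was above 0 in all 4 mice of slide 1 and below 0 in all 4 of slide 2. The difference of -1.10 had an adjusted p of 0.0762 by limma. Its exact permutation p of 0.0286 follows from slides that do not overlap, so it adds no evidence. The Eif2ak2 red signal was well above background on 3 arrays of slide 1 and on none of slide 2.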

How the results depend on the processing

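No paired analysis was possible because the 8 arrays form 1 group against 1 pool. With the 2-fold rule, 1 member was called with the ratio of processed signals (Oas1g) and 3 with median-centered signals (Oas1g, Ifi27 and Trim30). The count was 0 as reported, beside 0.389% of all genes higher and 1.29% lower, and 0 in every other setting. The shares with processed or median-centered signals were not counted, so no result about the members is read from those calls. Members higher at an adjusted p under 0.05 were 0 as reported. They were 3 with processed signals (20.3% of all genes) and 7 with median-centered signals (25.7%). There was 1 with slide as a covariate (Ifngr2, 8.74%) and 1 on slide 1 alone (Ifnar2, 6.64%). Of the 18 members bright in red, 1 was higher (Socs1, 13.2%, a filter on the outcome's own signal). With a mouse left out, 0 to 2 were higher, beside 5.18% to 6.67% of all genes. The 2 were Irf8 and Socs1 without replicate 5 (6.01%). Members lower at the same threshold were 3 as reported. They were 5 with processed signals (16.7% of all genes), 5 with median-centered signals (18.9%) and 5 with slide as a covariate (18.6%). They were 0 on slide 1 alone (9.75%) and 0 on slide 2 alone (0.881%), where 4 mice enter. Normexp correction gave 2 (Ifi27 and Ifi205, 10.1%). Of the 18 members bright in red, 4 were lower (with Stat2, 17.3%). The mean of all probes gave 3 (Ifngr1, Stat2 and Irf3, 16.7%). With a mouse left out, 2 to 4 were lower, beside 9.71% to 12.2% of all genes. Members past the exact test were 8 as reported, beside 32.5% of all genes. They were 10 with processed signals, 11 with median-centered signals and 5 to 9 with a mouse left out. The share of all genes past it was not counted in those settings, so no result about the members is read from them. Members differing between slides, 0 as reported, were 2 with processed signals (8.87% of all genes) and 2 with median-centered signals (4.9%). Median-centered signals turned Oasl1 to 0.75 and Ifit2 to 0.88. The members' median kept within its spread over mice, from -0.18 to -0.00. The causes were not tested. Red signal was well above background on no array in 14 of the 40 members.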
